A study of Homo sapiens with 3 samples.

Results

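The 29 genes described here are protein-coding genes outside the X and Y chromosomes that the sequenced parental clone transcribed and that were nearly without reads in both sequenced gemcitabine-resistant clones. They were chosen on the read counts themselves: at least 20 reads in parental library 1 and at most 3 reads in each of resistant libraries 1 and 2. Of 29960 genes in the deposited table, 16974 were protein-coding and outside X and Y, and 11501 of these had at least 20 parental reads. The 29 genes were 0.252% of those 11501. The low counts in the resistant libraries are therefore what defined the set, not a result, and are given below as a description with no test.

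The cells were 5637, an established human bladder cancer line, grown in RPMI medium with 10% FBS. The parental group is the untreated 5637 line (genotype label WT), and the resistant group is its derivative obtained by exposure to gemcitabine, a deoxycytidine analogue that blocks DNA synthesis. The resistant cells were also labelled untreated at sampling. Each library came from a clone grown out of a single cell, and the study states 3 clones per group. Of these clones, 1 parental and 2 resistant ones carried a sample label, and the counts used here are from those 3 libraries. The authors' group means of normalized counts, which also include clones without a label here, were used as deposited. Reads counted on genes totalled 14475531 in the parental library and 15836788 and 17461941 in resistant libraries 1 and 2. With 1 parental clone, a difference between clones of one line and a difference that goes with resistance cannot be told apart. In bulk RNA, fewer cells that express a gene and less RNA per cell cannot be told apart either. Epithelial markers were present in all 3 libraries: of 13 genes on the list, 11 had at least 20 reads in the parental library and 10 in each resistant library, with summed levels of 10154, 7575 and 7711 CPM (counts scaled to library size). Whether the lower summed level of the epithelial list goes with the 29 genes was not tested. Leukocyte markers summed to 0.783 to 1.53 CPM and endothelial markers to 0.427 to 2.01 CPM. The fibroblast list was not near 0, at 173.6, 155.3 and 145.6 CPM, which came from COL1A1 (1591, 1584 and 1063 reads) and COL1A2 (835, 946 and 1458), while LUM had no read and COL3A1 at most 2.

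Loss of all transcripts of a gene is the far end of expression change in cultured tumor cells. A gene can become silent when its promoter is methylated or packed into closed chromatin, when a transcription factor it needs is missing, or when the gene itself is deleted; none of these was measured here. Bladder epithelium normally carries uroplakins on its surface, layered keratins in its cytoskeleton, and retinoid-responsive genes that shape its differentiation. Secreted chemokines and trefoil peptides are further products of epithelial and stromal cells in mucosal tissue.

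The 250 bases before the annotated start are printed for 4 of the genes, because they are the promoter stretches of the member with the most parental reads (ALDH7A1), the keratin (KRT4), the uroplakin (UPK1B) and the chemokine (CXCL12) on which the description turns. CG pairs, the sites at which human DNA is methylated, are in capitals. The sequences are RefSeq's on build GRCh38.p14, read 5′ to 3′ on the gene's own strand: ALDH7A1 from chr5:126595220-126595469 (minus), KRT4 from chr12:52814117-52814366 (minus), UPK1B from chr3:119173348-119173597 (plus) and CXCL12 from chr10:44385098-44385347 (minus).
ALDH7A1: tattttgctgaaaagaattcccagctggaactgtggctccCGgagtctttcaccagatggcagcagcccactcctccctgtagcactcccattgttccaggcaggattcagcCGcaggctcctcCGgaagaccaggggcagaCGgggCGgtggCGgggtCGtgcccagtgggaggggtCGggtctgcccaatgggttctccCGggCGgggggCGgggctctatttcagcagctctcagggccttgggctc
KRT4: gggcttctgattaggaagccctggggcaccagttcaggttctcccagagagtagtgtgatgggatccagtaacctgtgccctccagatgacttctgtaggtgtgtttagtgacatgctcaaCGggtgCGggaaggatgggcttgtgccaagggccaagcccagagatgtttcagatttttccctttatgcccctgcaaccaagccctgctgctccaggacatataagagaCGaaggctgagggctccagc
UPK1B: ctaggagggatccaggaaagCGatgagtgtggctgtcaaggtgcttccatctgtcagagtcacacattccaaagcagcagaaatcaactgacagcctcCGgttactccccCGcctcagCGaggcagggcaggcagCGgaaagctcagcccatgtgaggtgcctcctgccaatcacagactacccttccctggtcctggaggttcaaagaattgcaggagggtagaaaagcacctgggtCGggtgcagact
CXCL12: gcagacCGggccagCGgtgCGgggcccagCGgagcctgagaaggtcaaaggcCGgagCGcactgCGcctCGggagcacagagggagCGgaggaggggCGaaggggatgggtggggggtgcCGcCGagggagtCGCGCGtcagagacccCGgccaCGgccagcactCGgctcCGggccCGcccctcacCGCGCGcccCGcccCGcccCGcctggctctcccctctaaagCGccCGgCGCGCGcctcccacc
The 4 stretches differed in CG pairs. CXCL12 held 31, ALDH7A1 11, UPK1B 6 and KRT4 3, against a median of 11 and quartiles of 3 and 23 over 27305 promoters of the same length. The CXCL12 stretch had more CG pairs than 89.4% of all promoters, and that of KRT4 more than 23.6%. The letters TATAAA, searched on both strands, were in none of the 4 and in 11.1% of all promoters. A RefSeq promoter was found for 21 of the 29 genes, 72.4%, too few for a comparison of the whole set with other promoters. No promoter was matched for TFF2, SOSTDC1, FAM110B, COL22A1, RHCG, TOX3, SDR42E1 and EYA2. Methylation was not measured in these data.

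Over the set, parental reads ranged from 21 to 907 with a median of 55, against a median of 468 over all 11501 genes with at least 20 parental reads. Only 8.90% of those 11501 genes had fewer than 55 reads. At least 100 parental reads were counted for 9 of the 29 genes (31.0%) and for 83.9% of the 11501. On a per-length scale the same held, with a median parental level of 1.03 FPKM (range 0.188 to 12.6) against 9.23 FPKM. Most of the genes were thus weakly transcribed in the parental clone, and weakly transcribed genes meet a fixed limit of 3 resistant reads more easily. Transcript length did not set them apart, with medians of 3414 and 3528 bases. In resistant library 1, 18 of the 29 genes had no read at all, in resistant library 2 there were 9, and 8 had no read in both. The sum over both libraries never exceeded 4 reads and was 0 or 1 for 13 genes.

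**Figure D1:**
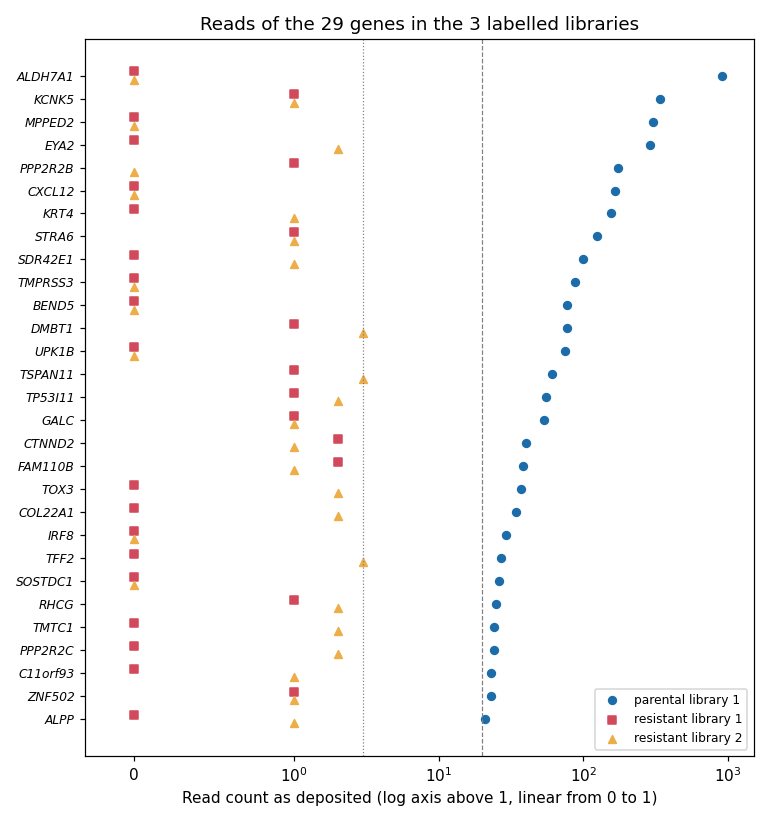
Read counts as deposited for the 29 genes (rows) in parental library 1 (circles), resistant library 1 (squares) and resistant library 2 (triangles), on an axis that is linear from 0 to 1 and logarithmic above. The dashed line marks the 20 parental reads and the dotted line the 3 resistant reads of the rule; parental counts run from 21 (ALPP) to 907 (ALDH7A1), and the 2 resistant libraries lie at 0 to 3 by construction.

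How often a gene was at such opposite counts depended on the pair of libraries. With resistant library 1 alone, 57 genes (0.496% of 11501) met the rule, and with resistant library 2 alone 39 (0.339%). The reverse pattern, at most 3 parental reads and at least 20 in both resistant libraries, held for 19 of 11469 genes, 0.166%. The resistant clones also differed from each other in this way: 38 of 11837 genes (0.321%) had at least 20 reads in resistant library 2 and at most 3 in library 1, and 5 of 11636 (0.0430%) the opposite. Counts this far apart between single clones were thus also found within the resistant group.

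Of the genes just inside the rule, ALPP had 21 parental reads, and DMBT1, TSPAN11 and TFF2 had 3 reads in resistant library 2. Just outside it, ZNF334 had 19 parental reads and none in either resistant library. WNT11, a secreted Wnt ligand, had 251 parental reads with 2 and 4 resistant reads, and PALM, a membrane-associated phosphoprotein, had 150 with 4 and 4. TMPRSS13, a serine protease, had 67 with 4 and 1, APBA2 23 with 0 and 4, PTN 25 with 1 and 4, EMID1 34 with 1 and 4, and CGB8 26 with 0 and 4. The counts on either side of the limits thus differed by single reads.

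Folds below compare the parental library with both resistant libraries summed, after scaling by library size and TMM factor. Where both resistant libraries had no read, the fold is a lower bound set by 3 reads over the group, with the parental count taken as exact. The lower limit of an exact 95% Clopper-Pearson interval is smaller, for example 590 against 727 for ALDH7A1 and 15.8 against 20.8 for SOSTDC1. For the other genes the fold has such an interval. Bounds and intervals cover counting error only, not the spread between clones. Gene positions are those of the deposited table, and the submitters' processing notes name the build hg19.

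Enzymes of small molecules gave the most abundant member. ALDH7A1 (ENSG00000164904, chr5:125877533-125931110) encodes an aldehyde dehydrogenase of lysine breakdown that also clears lipid-derived aldehydes and betaine aldehyde. It had 907 reads in the parental library and 0 in both resistant libraries, at least 727-fold fewer. The other enzymes of the set were less abundant. SDR42E1, a short-chain dehydrogenase/reductase, had 100 parental reads with 0 and 1 resistant reads, a ratio of 241 (95% interval 42.2 to 9593). GALC, the lysosomal galactosylceramidase that is deficient in Krabbe disease, had 53 with 1 and 1. ALPP, the placental alkaline phosphatase, had 21 with 0 and 1, a ratio of 50.5 (8.12 to 2089). ALPP has near-identical relatives such as ALPPL2, which had 2, 1 and 0 reads, so the assignment of its few reads is uncertain.

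Phosphatases and their subunits formed a second group. MPPED2 (ENSG00000066382, chr11:30406040-30608419), a metallophosphoesterase, had 304 parental reads and none in both resistant libraries, at least 244-fold fewer. EYA2 (ENSG00000064655, chr20:45523263-45817492), a transcriptional coactivator with tyrosine phosphatase activity, had 288 with 0 and 2, a ratio of 346 (95.01 to 2873). A pair of the regulatory B subunits that direct protein phosphatase 2A to its substrates were both in the set. PPP2R2B (chr5:145967936-146464347) had 173 parental reads with 1 and 0 resistant reads, a ratio of 416 (73.7 to 16528). PPP2R2C had 24 with 0 and 2, a ratio of 28.9 (7.17 to 252.0). The other PPP2R2 genes were expressed in all 3 libraries: PPP2R2A had 613, 975 and 798 reads and PPP2R2D had 342, 468 and 732. The same contrast within a family was seen for EYA2, whose relatives EYA3 (612, 848 and 786 reads) and EYA1 (37, 43 and 27) kept reads in the resistant libraries.

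Membrane proteins included a channel, a receptor and several transporters or scaffolds. KCNK5 (ENSG00000164626, chr6:39156749-39197226), a background potassium channel of epithelia, had 336 parental reads with 1 and 1 resistant reads, a ratio of 404 (111.0 to 3350). STRA6 (ENSG00000137868, chr15:74471807-74504608), the cell-surface receptor through which cells take up vitamin A, had 125 with 1 and 1, a ratio of 150.3 (40.8 to 1255). UPK1B (ENSG00000114638, chr3:118892364-118924000), a tetraspanin of the urothelial plaque, had 74 with 0 and 0, at least 59.3-fold fewer. UPK1B was also the only member among the 13 epithelial markers. Of the other uroplakins, UPK3B had 749, 133 and 317 reads, while UPK2, UPK1A and UPK3A had at most 9 reads in any library. TMPRSS3, a membrane-bound serine protease known from inherited deafness, had 88 with 0 and 0, at least 70.5-fold fewer. TSPAN11, another tetraspanin, had 61 with 1 and 3 reads. RHCG, an ammonia transporter of epithelia, had 25 with 1 and 2, and TMTC1, an endoplasmic reticulum protein of cadherin O-mannosylation, had 24 with 0 and 2. The relatives TMTC2, TMTC3 and TMTC4 had 338 to 941 reads in every library.

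Secreted and matrix products were led by a chemokine. CXCL12 (ENSG00000107562, chr10:44793038-44881941), which attracts leukocytes and stem cells through CXCR4, had 164 parental reads and none in both resistant libraries, at least 131-fold fewer. Its receptor CXCR4 had 3, 3 and 1 reads, at the floor in all 3 libraries, whereas the scavenging receptor CXCR7 had 540, 520 and 702. DMBT1, a scavenger receptor-type glycoprotein of mucosal surfaces, had 77 with 1 and 3 reads, a ratio of 46.3 (17.4 to 174.2). SOSTDC1, an extracellular antagonist of BMP and Wnt signals, had 26 with 0 and 0, at least 20.8-fold fewer. COL22A1, a collagen of tissue junctions, had 34 with 0 and 2. TFF2, a trefoil peptide that protects mucosa, had 27 with 0 and 3, a ratio of 21.6 (6.66 to 111.5).

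The cytoskeletal and junction members were KRT4 and CTNND2. KRT4 (ENSG00000170477, chr12:53200333-53208335), a type II keratin of stratified non-cornified epithelia, had 156 parental reads with 0 and 1 resistant reads, a ratio of 375 (66.4 to 14913). CTNND2, the delta-catenin that binds cadherin tails, had 40 with 2 and 1, a ratio of 32.1 (10.2 to 162.0). The partner of KRT4 in such epithelia, the type I keratin KRT13, was not in the set but had 1742, 599 and 290 reads.

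Nuclear factors were mostly near the lower limit of the rule. BEND5, a BEN-domain DNA-binding protein, had 77 parental reads and none in both resistant libraries, at least 61.7-fold fewer. IRF8, an interferon regulatory factor best known from myeloid cells, had 29 with 0 and 0, at least 23.2-fold fewer. IRF5, of the same family as IRF8, had 63, 256 and 219 reads. TOX3, a high-mobility-group box protein, had 37 with 0 and 2, and ZNF502, a zinc finger protein, had 23 with 1 and 1. C11orf93, whose current symbol is POU2AF3, a coactivator of the tuft cell factor POU2F3, had 23 with 0 and 1. It overlaps C11orf92 on the opposite strand, which had 18, 0 and 0 reads, and the strand setting of the counting is not given in the sources used here, so reads of this pair cannot be told apart. The last members, FAM110B, a centrosome-associated protein, and TP53I11, a p53-inducible membrane protein, had 38 with 2 and 1 and 55 with 1 and 2 reads.

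The group means include clones that the rule did not use. They also include the labelled libraries, so they are not independent of the rule. The rule held 2 of the stated 3 resistant clones at 3 reads or fewer. A resistant mean at least 2-fold lower was therefore largely fixed in advance, and the comparison with other genes is only a description. All 29 genes were at least 2-fold lower in the resistant mean than in the parental mean, against 2.89% of the 11501 genes. The median log2 ratio of resistant to parental mean, after a pseudocount of 1, was −3.76 for the 29 genes and 0.00 for the 11501. KRT4 had the lowest share, with a parental mean of 133.2 and a resistant mean of 0.671, which is 0.503%. SDR42E1 followed, with means of 47.9 and 0.279. CXCL12 had means of 120.7 and 1.57 and TMTC1 had 61.1 and 0.9501. The resistant mean was under 5% of the parental mean for 17 genes and under 1 normalized read for 9.

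A smaller number of genes were not silent across the resistant group. The resistant mean was at least 10% of the parental mean for 6 genes. UPK1B had means of 70.1 and 20.4, a share of 29.05%. ALDH7A1 had 875 and 243, a share of 27.7%, which was the highest resistant mean in the set. EYA2 had 156.2 and 31.1 (19.9%), GALC 46.2 and 7.23 (15.7%), MPPED2 402 and 51.3 (12.8%) and STRA6 118.9 and 13.5 (11.4%). KCNK5 had a resistant mean of 20.9 (7.37% of 284) and PPP2R2B one of 9.30 (5.33% of 174.6). UPK1B, ALDH7A1 and MPPED2 had no read in both labelled resistant libraries. With 3 clones per group as stated, the whole of their resistant mean came from the resistant clone without a label here. The level in that clone was thus above the resistant mean, and the share is not a level common to the resistant clones. The description "silenced" therefore holds for these genes in the labelled clones and not for the resistant group as a whole. By contrast, the resistant mean of the other 5 genes without a read in both libraries (CXCL12, TMPRSS3, BEND5, IRF8 and SOSTDC1) was 1.17 to 2.35.

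**Figure D2:**
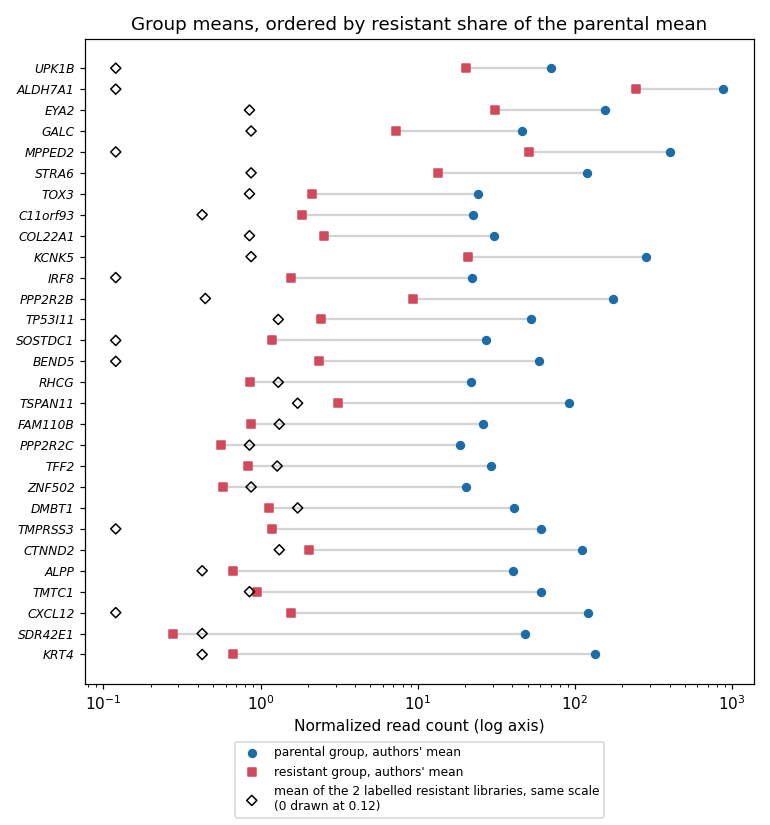
The authors' group means of normalized counts on a log axis for the parental group (circles) and the resistant group (squares), with the mean of the 2 labelled resistant libraries on the same scale (open diamonds, 0 drawn at 0.12). Genes are ordered by the resistant share of the parental mean, from UPK1B (29.05%) at the top to KRT4 (0.503%) at the bottom; the distance between diamond and square is widest for ALDH7A1, MPPED2, EYA2, KCNK5 and UPK1B.

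The parental mean was also set beside the labelled parental clone. The ratio of the parental mean to that clone's scaled count had a median of 0.865 and was within 1.5-fold of 1 for 22 of the 29 genes (75.9%), against 97.3% of the 11501. It was highest for CTNND2 (2.70), TMTC1 (2.48) and ALPP (1.87), so these had more reads in the parental clones without a label. It was lowest for SDR42E1 (0.467), DMBT1 (0.519) and EYA2 (0.529). For 22 of the 29 genes the ratio was below 1. The rule chose the genes on the labelled clone's own count, and their median count was lower than that of genes at large. The shares of 75.9% and 97.3% are therefore not a like comparison, and nothing is concluded from their difference.

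The 29 genes lay on 16 chromosomes. Chromosomes 5, 11, 12 and 16 carried 3 each, and chromosomes 9, 13, 17, 18, 19 and 22 none. Chromosome 21 had the highest share, 2 of its 119 genes with at least 20 parental reads (1.68%). With genes at most 1 Mb apart joined, a single cluster was found, TFF2 (chr21:43766466-43771237) and TMPRSS3 (chr21:43791999-43816955), 20762 bases apart on the same strand. TFF1, another trefoil gene, lies between them and had 13 parental reads with 1 and 1 resistant reads, under the parental limit of the rule. TFF3 had no read in any of the 3 libraries. On the other side of TMPRSS3, UBASH3A had 2, 0 and 0 reads and RSPH1 12, 6 and 1. The region of low counts ended at expressed genes on both sides, with SLC37A1 at 916, 715 and 948 reads and ABCG1 at 458, 153 and 422. The next closest pair was TMTC1 and TSPAN11 on chromosome 12, 1.14 Mb apart, with CAPRIN2 (787, 633 and 891 reads) and IPO8 (1016, 1180 and 822) between them.

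**Figure D3:**
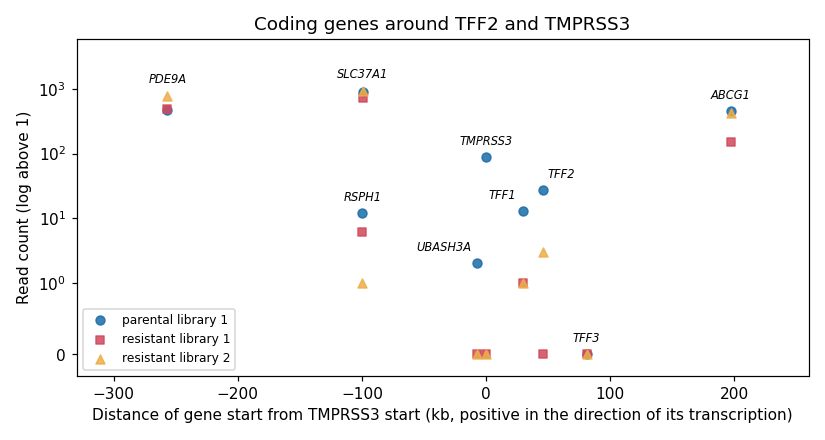
Read counts of the protein-coding genes around TFF2 and TMPRSS3 in the 3 labelled libraries, against the distance of each gene's start from that of TMPRSS3 in kb, positive in the direction in which TMPRSS3 is transcribed (count axis linear from 0 to 1 and logarithmic above). TMPRSS3, TFF1 and TFF2 have 88, 13 and 27 parental reads and at most 3 in each resistant library, while SLC37A1, PDE9A and ABCG1 keep at least 153 reads in every library.

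Neighbouring genes show whether low counts extended beyond the 29 genes, and the rule did not use them. Around 25 of the genes, 135 other protein-coding genes with at least 20 parental reads lay within 500 kb. BEND5, COL22A1, CXCL12 and TOX3 had none. In 9 of the 135 (6.67%) the count was at least 2-fold lower in both resistant libraries, against 2.54% of 11472 genes outside the set, and 1 (0.741%) was at least 2-fold higher in both, against 1.73%. The median log2 ratio of the 135 was −0.26 (−0.17 in resistant library 1 and −0.25 in library 2), against −0.03. In resistant library 1 alone 10.4% of the neighbours were at least 2-fold lower, against 5.33% of the 11472 genes, and in resistant library 2 alone 16.3%, against 6.13%. No test was made of these differences, since neighbours of one gene share a region. Without the neighbours of KRT4, a setting chosen after seeing the data, the median was −0.10 and the share 4.24%.

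Next to most genes of the set, the neighbours were still transcribed in the resistant libraries. PHAX, an RNA export factor whose gene lies 4850 bases from ALDH7A1, had 760, 618 and 478 reads, with log2 ratios of −0.51 and −0.97. LMNB1, also beside ALDH7A1, had 4768, 2850 and 2493. B4GALT4, a galactosyltransferase 6579 bases from UPK1B, had 149, 105 and 135. For 20 of the 25 genes no neighbour was 2-fold lower in both resistant libraries. Among these 20, all neighbours of SOSTDC1, TSPAN11, TMTC1 and EYA2 had a mean log2 ratio under 0. The medians were −0.41, −0.70, −0.45 and −0.81. All neighbours of CTNND2 and KCNK5 were above 0, with medians of 0.34 and 0.08. Around PPP2R2C, 10 of 11 neighbours were above 0, with a median log2 ratio of 0.49, and MAN2B2, a lysosomal mannosidase, had 416, 819 and 1318 reads.

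KRT4 had the most lower neighbours. All 17 of its neighbours had a log2 ratio under 0, from −4.49 to −0.30 with a median of −0.80, and 4 were at least 2-fold lower in both resistant libraries. KRT5, the basal-layer keratin, had 3829 parental reads with 160 and 240 resistant reads, but its resistant group mean was 2047 (parental 11544). ITGB7, an integrin subunit, had 163 with 14 and 14, IGFBP6, an IGF-binding protein, 4163 with 1344 and 1386, and RARG, a retinoic acid receptor, 1521 with 589 and 405. KRT8, in the same region, had 32012, 27243 and 17615 reads. Genes in this region thus differed widely in their ratios, and among those with at least 20 parental reads only KRT4 was near 0 in both resistant libraries.

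Lower neighbours were found beside 4 further genes. PPP2R2B had 2 of 5, DPYSL3 (5962, 2789 and 2893 reads) and STK32A (75, 24 and 41). Their parental and resistant group means, 4772 and 4105 for DPYSL3 and 37.7 and 27.2 for STK32A, were less than 2-fold apart. The lower counts beside PPP2R2B thus describe the labelled clones and not the resistant group as a whole. The one neighbour of MPPED2, ARL14EP, had 285, 143 and 163. ZNF502 had 1 of 13, ZNF660 (40, 9 and 10), and RHCG had 1 of 9, the replication factor TICRR (922, 503 and 327). By group means, ZNF660 (43.1 and 10.9) was more than 2-fold lower. ARL14EP (267 and 138.4) and TICRR (870.9 and 462.2) were lower by less than 2-fold. All 6 neighbours of EYA2 had a mean log2 ratio under 0, with a median of −0.81 and none 2-fold lower in both. SULF2 among them split the resistant clones, with 2711 parental reads against 237 and 3869.

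**Figure D4:**
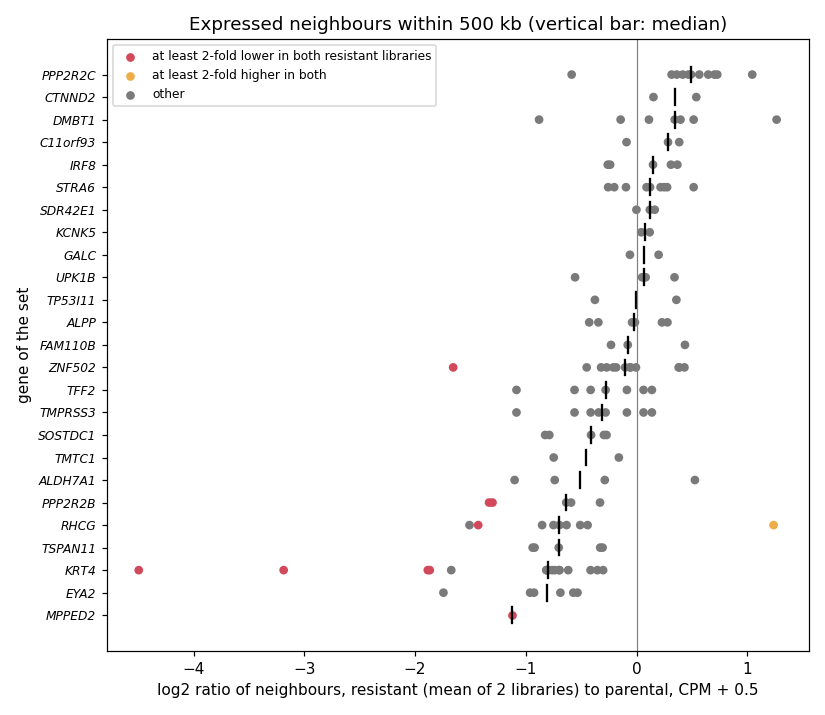
Mean log2 ratio of resistant to parental CPM (pseudocount 0.5) for each expressed neighbour within 500 kb of 25 of the genes, 1 row per gene, with the row's median as a vertical bar. Neighbours at least 2-fold lower in both resistant libraries are red and those 2-fold higher in both are orange; the lowest value, −4.49, is KRT5 beside KRT4, and the only orange point is MESP1 beside RHCG.

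Gene lists, of which some hold a member of the set and others do not, give the wider context. Over 12111 genes outside the set with at least 20 reads in any library, 2.4% were at least 2-fold lower and 2.77% at least 2-fold higher in both resistant libraries. Over all lists pooled, with or without a member (1014 genes), the share of lower genes was 3.85%. In resistant library 1 alone it was 7.30% against 5.14% of the 12111 genes, and in resistant library 2 alone 7.40% against 5.83%. Among 14 other aldehyde dehydrogenases, 1 was lower, ALDH3B1 (1200, 521 and 706 reads), and none higher, with a median log2 ratio of −0.45. ALDH1A3, the most abundant of them by read count, which makes retinoic acid, had 13457, 6222 and 10661. Near-absence of reads was thus seen for ALDH7A1 and for no other aldehyde dehydrogenase with at least 20 reads.

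KRT4 had other lower relatives. Of 15 other keratins with at least 20 reads in a library, 3 were lower in both resistant libraries and none higher, with a median log2 ratio of −0.42. These were KRT5, KRT17 (2759, 281 and 926 reads) and KRT13. Other keratins of basal or stratified epithelium were not lower in both labelled resistant libraries. KRT15 had 1195, 1328 and 1296 reads, KRT10 995, 1255 and 1678, KRT14 122, 53 and 121, and KRT16 72, 50 and 120. By group means, KRT14 (247.4 and 71.4) and KRT16 (114.6 and 67.1) were lower in the resistant group. KRT15 (1005 and 1136) and KRT10 (954.3 and 1244) were not. Of the keratins of simple epithelium, KRT7 (28009, 17126 and 15070 reads) had a mean log2 ratio of −1.07 and KRT8 one of −0.81, without being 2-fold lower in both resistant libraries. KRT18 (3950, 4055 and 3117 reads) was at −0.42 and KRT19 (60688, 58713 and 83089) at −0.06. In the group means KRT5 had 11544 and 2047, a smaller difference than in the labelled libraries. With 160 and 240 reads, both labelled resistant clones lay far below that resistant mean. The resistant clone without a label here was thus above it, with 3 clones per group as stated. The labelled parental clone, at 3829 reads, was likewise far below the parental mean. KRT6A, whose close copies make its count uncertain, had the larger difference in the group means instead. It had 150, 18 and 125 reads, lower in resistant library 1 only, but group means of 2111 and 50.02.

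**Figure D5:**
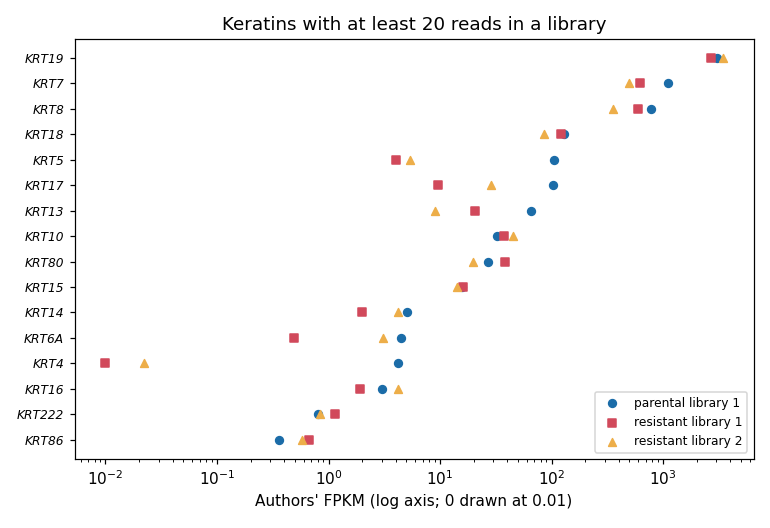
Deposited FPKM of the 16 keratins with at least 20 reads in any of the 3 labelled libraries, on a log axis on which 0 is drawn at 0.01 (resistant library 1 for KRT4). KRT4 is at 4.18 FPKM in the parental library and at 0.0222 or less in the resistant ones, KRT5 at 104.5 against 3.99 and 5.43, whereas KRT19 lies between 2667 and 3423 in all 3 libraries.

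Of 19 other collagens none was lower and 1 was higher, COL13A1 (103, 416 and 964 reads), with a median log2 ratio of −0.29. Of 425 genes named ZNF, 5 were lower and 1 higher. Of 41 potassium and calcium channel genes 4 were lower and 3 higher. Of 14 interferon-stimulated genes 4 were lower and 1 higher, and of 16 enzymes of DNA methylation and histone silencing 1 was lower, the DNA demethylase TET1 (91, 41 and 34 reads). The maintenance methyltransferase DNMT1 had 6436, 5868 and 9484 reads and the histone methyltransferase EZH2 1967, 1888 and 1841. A part of these enzymes in the low counts of the 29 genes was not tested.

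The retinoid genes around STRA6 were looked up after the values of STRA6 were seen. RARG was lower in both resistant libraries, as given above. In the opposite direction, CRABP2, which carries retinoic acid to the nucleus, had 267, 2191 and 1475 reads. RARA had 814, 1435 and 1614 reads and RXRA 9966, 7133 and 8065. Retinoid genes beside STRA6 thus had both lower and higher counts in the resistant libraries. ALPL, the tissue-nonspecific relative of ALPP, had 52, 2 and 6 reads, close to the limits of the rule.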

How the data were processed

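Poly(A) RNA of single-cell clones of the 5637 line was sequenced by Novogene on an Illumina platform. The authors deposited a table with, per gene, raw read counts, FPKM values, and group signal values, which are the authors' means of size-factor-normalized counts. CASAVA 1.8 and hg19 stand in the submitters' processing notes; the aligner, counting tool and strand setting are not given in the sources used here. The table also holds the authors' fold changes and p-values, which were not used, and 6 per-sample columns without a label here, which were left out. Labels gave 1 parental and 2 resistant libraries, and nothing says whether culture and library preparation ran together.

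The members and gene lists were chosen with earlier results of these data known, and paralogous families after values were seen. All members were named. Of other genes, those 1 read outside the rule, members of lists that hold a member, and nearest neighbours were eligible for naming. Members were found on the deposited counts. CPM were scaled by TMM (edgeR 4.0.16, R 4.3.3), with a pseudocount of 0.5, and group means were compared after a pseudocount of 1. Lower or higher meant at least 2-fold in both resistant libraries. No model was fitted, since the rule used this contrast and the parental group had 1 library. Neighbours lay within 500 kb and clusters within 1 Mb, in the table's coordinates. Totals of 14475531 to 17461941 counts set the precision, and intervals cover counting error only. Alternatives covered the thresholds, pseudocounts, filters, windows, scaling (including size factors of DESeq2 1.42.0) and each resistant library in turn. Promoters were RefSeq's (GRCh38.p14), read only by symbol and never joined to hg19 positions. Scripts were tested on simulated data. Python 3.11.15, pandas 2.3.3, scipy 1.17.1 and matplotlib 3.10.9 were used.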

Additional observations from a re-analysis of the deposited data

How the results depend on the processing

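The number of genes that met the rule was set by its limits. It was 57 with a parental minimum of 10 reads, 16 with 50, 8 with no resistant read allowed and 44 with up to 5, and 39 to 57 with 1 resistant library left out (57 without resistant library 2). Scaling the counts by TMM gave the same 29 genes. The median log2 ratio of the group means was −4.17 with a pseudocount of 0.5, −2.74 with 5 and −4.02 for the 16 genes with at least 50 parental reads. The neighbours' median was −0.19 within 1 Mb, −0.19 with total-count scaling, −0.10 without the neighbours of KRT4 (chosen after seeing the data) and −0.25 to −0.17 with 1 resistant library left out. The share of neighbours that were 2-fold lower was 10.4% to 16.3% in a single resistant library, against 5.33% (library 1) and 6.13% (library 2) of 11472 genes outside the set. A second cluster, TMTC1 with TSPAN11, joined at 3 Mb. Over all lists pooled, 3.85% of genes were lower, 3.45% with total-count scaling, 3.41% with at least 100 reads and 7.30% to 7.40% in a single resistant library, against 5.14% and 5.83% of all 12111 genes. The other alternatives, 17 of 35, left the values within the spread of the 2 resistant libraries or within 1.5 times the count, and no value changed sign. The promoter alternative was not run, because too few of the genes had a promoter. No paired analysis was possible because the groups share only replicate number 1 and no test was made. With 1 parental library the spread between parental clones is not known for any gene, and a count of 0 still allows up to 3 reads at this depth.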

Other observations

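Genes of other types met the same count limits. There were 8, among them H19, an imprinted non-coding RNA of chromosome 11, with 2344 parental reads and none in both resistant libraries, and a resistant group mean of 0. ADH1C, listed as a polymorphic pseudogene, an alcohol dehydrogenase that oxidizes retinol as well as ethanol, had 134 parental reads with 0 and 1 resistant reads and group means of 102.3 and 0.279. CCAT1, a non-coding RNA of colon cancer, had 115 with 3 and 1. The lincRNAs RP11-336A10.4 and RP3-340N1.2 had 109 with 1 and 1 and 70 with 1 and 0. The pseudogenes MEIS3P1, ANKRD20A19P and CTB-60B18.15 had 42, 29 and 25 parental reads and at most 2 in a resistant library. CTB-60B18.15 kept a resistant group mean of 23.3 against 27.6 in the parental group, and thus had reads in a clone without a label here.

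Several lists without a member also held genes that were lower or higher in both resistant libraries. Of 61 expressed genes with symbols that start with TNF or with IL and a digit, 11 were at least 2-fold higher and none lower. Their median log2 ratio was 0.59. This list was drawn by symbol alone and is not limited to secreted ligands. Of 36 cadherins and protocadherins, 7 were lower and 2 higher. Of 13 genes around the 11p15.5 imprinted domain, 6 were lower and none higher, with a median of −1.82. These stood beside 2.4% lower and 2.77% higher over all 12111 genes.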
